A study of Caenorhabditis elegans with 2 samples.

Results

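The col genes of Caenorhabditis elegans encode collagens, most of them of the cuticle, and were described here at the DNA level, by where peaks of the transcription factor NFYA-1 fell in and around them. They were taken as all protein-coding genes of the Ensembl annotation of WBcel235 whose symbol is col- followed by a number. This gave 156 genes of 19973 nuclear protein-coding genes (19985 with the mitochondrial ones). The files analysed are peak lists from ChIP-seq (sequencing of immunoprecipitated chromatin), in which regions of DNA pulled down with a protein appear as peaks, each with a summit and a signal value. The samples form 1 group of 2 biological replicates of whole young adult hermaphrodites of strain OP404. This strain carries the unc-119 allele tm4063 on chromosome III and the integrated transgene wgIs404, from which NFYA-1 is made with GFP and FLAG at its C-terminal end, and an antibody against GFP was used. The labels do not name the promoter of the transgene. Both replicates carry the same allele and transgene. A strain without the tagged protein was not analysed here, so no values from such a strain could be set beside these. Whole animals mix the cuticle-making epidermis with every other tissue, and a peak cannot be put in a cell type.

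The cuticle is an extracellular coat of cross-linked collagens that the epidermis secretes anew at each moult. Cuticle collagens are short chains built of Gly-X-Y repeats, where X and Y are often proline, flanked by cysteines. After hydroxylation and folding in the endoplasmic reticulum they join as trimers and are processed and cross-linked outside the cell. Many col genes are expressed in waves tied to the moulting cycle or to a single stage. NF-Y is a complex of A, B and C subunits known for binding CCAAT in promoters, and NFYA-1 is a worm form of the A subunit.

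A gene was said to have a peak when a summit lay in one of its coding exons, or in a start window, which reached 1000 bp upstream and 200 bp downstream of each start of its protein-coding transcripts. Each of the pooled, replicate 1 and replicate 2 lists holds 30000 peaks, a fixed number that includes background, and rank 1 is the highest signal value of a list. Neither the scale of the signal nor the read depth is known. The signal was therefore used only to rank peaks within a list, and signal levels of different lists cannot be compared. Because the 2 samples belong to 1 group, samples could not be tested against each other, and the values given are descriptions. Exact Clopper-Pearson 95% intervals cover the counting of genes or summits only, and genes are not independent replicates.

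The summits of the strongest col peaks lay mostly within the collagen coding sequence, as the strongest summits of other genes lay in theirs. Of the 15 col genes with the best pooled rank, 13 had that summit in a coding exon, and in 8 of these 13 the summit base lay in a stretch of at least 5 Gly-X-Y units, each a glycine codon (GGN) and 2 further codons. Of the 1343 other genes with a pooled rank at least as good as the 15th, 1782, 76.3% had the best summit in a coding exon. Repeats of this kind make up 47.7% of the coding bases of col genes. With 15 genes, neither count is read as a difference from these shares. The windows of 101 bp around 5 of the 13 coding summits, all on chromosome IV, are shown because they are among the best ranked and contain repeat sequence. The summit base itself is in a repeat in all of these but col-123. They are written 5′ to 3′ on the strand of the gene, with the glycine codons of the repeat in capitals. Sequence is from the RefSeq genome of WBcel235, which is build ce11. The windows are chrIV:9822419-9822519 (plus strand), chrIV:9395591-9395691 (minus strand), chrIV:1353836-1353936 (minus strand), chrIV:9260783-9260883 (minus strand) and chrIV:14098836-14098936 (minus strand).
col-123: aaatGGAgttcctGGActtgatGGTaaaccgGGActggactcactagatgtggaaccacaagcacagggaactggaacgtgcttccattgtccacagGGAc
col-121: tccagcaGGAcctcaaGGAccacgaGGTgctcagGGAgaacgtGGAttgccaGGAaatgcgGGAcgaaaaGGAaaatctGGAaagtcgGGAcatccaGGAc
col-104: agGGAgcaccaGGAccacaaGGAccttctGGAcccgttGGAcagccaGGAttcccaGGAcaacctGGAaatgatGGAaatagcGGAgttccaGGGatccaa
col-120: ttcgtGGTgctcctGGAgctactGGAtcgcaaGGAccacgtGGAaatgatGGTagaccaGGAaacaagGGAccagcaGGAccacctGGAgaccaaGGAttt
col-133: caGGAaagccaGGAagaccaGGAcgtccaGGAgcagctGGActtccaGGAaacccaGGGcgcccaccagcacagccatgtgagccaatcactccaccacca
The windows of col-121, col-104 and col-120 held 11 repeat glycine codons each and consisted of repeat over nearly their whole length. In col-133 the window held 7 and ran out of the repeat, and in col-123 it held 5, with the summit between repeats. GC content of the 5 windows ran from 51.5% in col-123 to 61.4% in col-133. CCAAT on either strand was in the window of col-133 alone, both among these 5 and among all 13 coding summits.

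A second pair of windows is shown because they held CCAAT on the strand of the gene, here in capitals. They are chrIV:8847921-8848021 (plus strand), which is upstream of the gene, and chrIV:326326-326426 (minus strand), whose summit lies in a coding exon and in the start window.
col-118: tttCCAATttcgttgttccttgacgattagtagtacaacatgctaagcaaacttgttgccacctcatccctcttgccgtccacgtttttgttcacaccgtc
col-101: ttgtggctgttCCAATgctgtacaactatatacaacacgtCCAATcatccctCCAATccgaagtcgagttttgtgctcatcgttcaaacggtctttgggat
The col-101 window held 3 copies of CCAAT and the col-118 window held 1, and the GC content of each was 44.6%.

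The gene with the strongest signal was col-123, a gene of 3 coding exons at IV 9821921 to 9823156 that is nested in catp-6, a P-type ATPase gene. Its peak, IV 9822324 to 9822613, ranked 40 in the pooled list with a signal value of 44.1. The same summit base, IV 9822469, was found in replicate 1, at rank 475 with signal 14.9, and in replicate 2, at rank 81 with signal 27.9. It lies 548 bp past the start, within coding sequence. This was the single col gene in the final list of 97 peaks that the authors thresholded by the irreproducible discovery rate, 1 of 156 or 0.641% beside 0.345% of all genes. A count of 1 gives no basis for reading a difference.

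Next came col-121 at IV 9394873 to 9396218, which ranked 112 in the pooled list, 993 in replicate 1 and 333 in replicate 2. Its summits lay within 5 bp of each other in the 3 lists, from IV 9395639 to 9395644, so both replicates placed it at the same point of the repeat. For col-104, at IV 1353636 to 1355305, the ranks were 344, 2264 and 283. Replicate 1 put the summit of col-104 at IV 1353910 and replicate 2 put it at IV 1353885. These 3 genes thus stood high in both replicates.

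In other leading genes the replicates differed more. col-120, at IV 9260610 to 9261787, ranked 385 in the pooled list and 422 in replicate 2 but 8638 in replicate 1. col-109, at IV 1817392 to 1820253, ranked 447, with 3745 in replicate 1 and 528 in replicate 2, and its replicate 1 summit lay at IV 1818865, away from IV 1818516 in replicate 2. col-133, at IV 14098325 to 14099356, ranked 757, with 3230 and 751 in replicates 1 and 2. In these 3 the rank in replicate 2 was the better one. col-98, at III 13019008 to 13020226, ranked 21590 in replicate 1 and 1533 in replicate 2.

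Other genes ranked better in replicate 1. col-71, at II 3500077 to 3502570, had rank 1309 there and 4270 in replicate 2, with a pooled rank of 1081. col-14, at IV 7753408 to 7754656 and nested in C46A5.4, had ranks of 2732 and 5248 and a pooled rank of 1736. Across the 68 col genes with a peak in both replicates, 39 ranked better in replicate 2 and 29 in replicate 1. Spearman's rho of their ranks was 0.248, and over the 8344 nuclear genes in both lists it was 0.259. Both lists were called against the same control file.

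**Figure D1:**
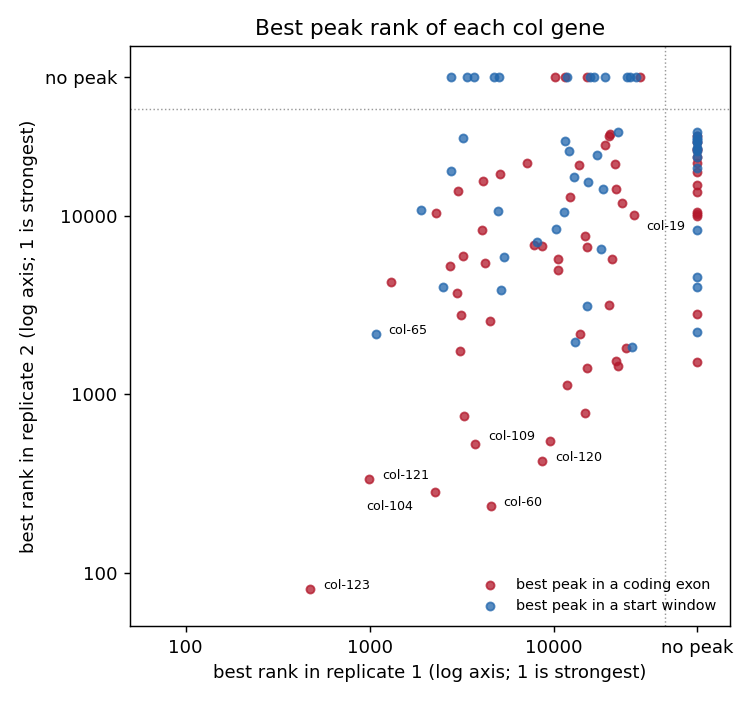
Best rank of each col gene in replicate 1 (x axis, log scale) and replicate 2 (y axis, log scale), with genes lacking a peak in a list placed beyond the dotted line and genes lacking one in both not drawn. Red points have the best replicate 2 peak (or the replicate 1 peak where there is none) in a coding exon and blue points in a start window. col-123, at 475 and 81, stands apart at the lower left, and most genes scatter widely at ranks beyond 1000.

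Among the 15, 8 were on chromosome IV, where 41 of the 156 col genes lie. With 15 genes, no pattern by chromosome is read from this. The remaining named genes of the 15 were col-95 (III 11703994 to 11705091, pooled rank 1229), col-97 (III 12992405 to 12993707, rank 1361) and col-118 (IV 8848218 to 8849673, rank 1782), and col-60, col-65 and col-51 on chromosome I. col-60 had pooled rank 177, with 4532 in replicate 1 and 235 in replicate 2. col-65 ranked 463, 1077 and 2181, with its pooled summit at -516 bp, where a minus sign means upstream of the start. col-51 ranked 835, 9472 and 550. Sequence identity to col-96 is 90.05% in col-95, so reads could be shared between these copies, depending on how they were placed.

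By the worse of both replicate ranks, the 10 best col genes were col-123, col-121, col-65, col-104, col-95, col-133, col-39, col-101, col-109 and col-47. col-39, at II 10704916 to 10706019, ranked 3072 and 1758 in replicates 1 and 2, and its pooled rank was 5542. col-101, at IV 325435 to 327020 and nested in the kinase gene drl-1, ranked 2649, 2992 and 3714, close to level in the 3 lists. col-47, which overlaps col-46, ranked 4893, 2501 and 4009. The pooled summit at rank 4893 lay within the col-46 gene, so it cannot be assigned to col-47 alone.

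Genes with a known stage or role were spread over the whole range of ranks. col-19, at X 421707 to 422691, is the adult cuticle collagen whose expression marks the larval-to-adult switch, and it ranked 4327 in the pooled list, 27059 in replicate 1 and 10106 in replicate 2. Its best summits lay within 6 bp of each other in the 3 lists, in a coding exon. col-7 ranked 15478, 22108 and 29538, each time in its start window and within a coding exon of the neighbour C15A11.4. col-2, at IV 10084439 to 10085451 and known for dauer expression, ranked 28421 in the pooled list, 2764 in replicate 1 and 17860 in replicate 2. Its replicate 1 summit lay in its own coding exon, and the replicate 2 and pooled ones at -823 and -793 bp, inside ndc-80.

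The pair col-12 and col-13 is 99.5% identical in coding sequence. col-13, at V 10420788 to 10421902, had peaks at ranks 8727, 4957 and 10682, with summits at -182, -250 and -133 bp from the start. col-12, at V 10423898 to 10425198, had none in the pooled list or replicate 1 and 1 at rank 26980 in replicate 2, whose summit lay in a coding exon of apc-10. The upstream summits of col-13 are outside the coding sequence that the pair shares. Copies were searched in coding sequence only, so the likeness of the upstream regions of the pair was not examined.

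col-10, at V 9164292 to 9165307, ranked 18390 in the pooled list and 3370 in replicate 1 and had no peak in replicate 2. The pooled summit lay at -767 bp, in a coding exon of B0222.11. col-17, at II 4866436 to 4867576, had a peak in replicate 1 only, at rank 4725, with the summit at -408 bp. col-34, at IV 4243545 to 4244610, and col-99, at IV 137974 to 147919, had none in replicate 1 and ranked 10243 and 9993 in replicate 2. col-99, which encodes a membrane-spanning collagen and not one of the cuticle, has 19 coding exons, the most of any col gene. Presence in a single replicate list says little about these genes, because the lists are cut at a fixed number of peaks. No gene of the annotation used here carried the symbol col-6.

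As a set, col genes had peaks about as often as other genes. The pooled list gave 88 of 156, 56.4% (exact 95% interval 48.2 to 64.3), beside 53.2% of all genes. Replicate 1 gave 84, 53.8% (45.7 to 61.8), beside 54%. Replicate 2 gave 97, 62.2% (54.1 to 69.8), beside 53.4%, which was just below the interval. The share was thus near that of all genes in 2 of the 3 lists and higher in replicate 2.

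In all 3 lists together 64 col genes had a peak, 41.0% beside 39% of all genes. Both replicates held 68, 43.6% beside 41.8%, and 41 had none in any list, 26.3% beside 33.5%. A peak in replicate 2 alone was found for 15 col genes, 9.62%, while 3.63% of all genes had this pattern, and in replicate 1 alone for 8, 5.13% and 6.98%. The higher share in replicate 2 thus included genes that no other list held. Most of these 15 ranked beyond 20000 there, in a range from 2234 (col-124) to 28166 (col-167). No interval was made for these patterns. Among the strongest peaks, 9 col genes had a pooled rank up to 1000, 5.77% (2.67 to 10.7) beside 4%, of which 6 lie on chromosome IV and 3 on chromosome I. At the same limit replicate 1 held 2 col genes, 1.28% beside 3.81%, and replicate 2 held 9, 5.77% beside 3.83%. The replicates thus lay on different sides of all genes among the strongest peaks. Up to rank 10000 there were 43 in the pooled list, 27.6% beside 27.1%, and 24 reached that rank in both replicates, 15.4% beside 14.3%.

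Within the set, peaks were less common at genes with a near copy. Of 38 col genes with a copy of at least 90% identity, 18 had a pooled peak, 47.4%, and of the 118 without one 70 had, 59.3%. The share of all genes, 53.2%, lay between these. Replicate 1 gave 42.1% and 57.6% and replicate 2 gave 47.4% and 66.9%. No interval was made for these shares. Near copies were not searched for other genes, so the difference cannot be called particular to col genes. How reads from such copies were placed is not stated in the labels, and its part in the difference was not tested. Genes with another col gene within 10 kb, 50 in number, had a pooled peak in 58.0% and the other 106 in 55.7%. The 22 col genes nested in another gene had one in 54.5%. By chromosome the pooled shares ran from 52.4% of 21 genes on I to 61.0% of 41 genes on IV. All genes on these chromosomes had 51.7% and 52.5%. The col share was above that of all genes on I, III, IV and X and below it on II and V.

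Col genes differ from most genes in base composition. Their coding sequence had a median GC content of 55.0% (43.4 to 62.4), and that of all nuclear protein-coding genes was 42.4%. A coding GC content at or above the col median was found in 0.969% of other genes. Coding length was closer, at a median of 915 bp (465 to 2235) and 993 bp. Glycine repeats made up a median of 49.8% of the coding sequence. They ran from 0% in col-17, whose Ensembl reading frame has none, up to 89.0%. Over all genes, those with a pooled peak had a median coding GC content of 42.1% and those without one 42.8%. Median GC at the pooled coding summits was 56.4% in col genes and 42.6% in other genes, close to the coding GC of each.

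**Figure D2:**
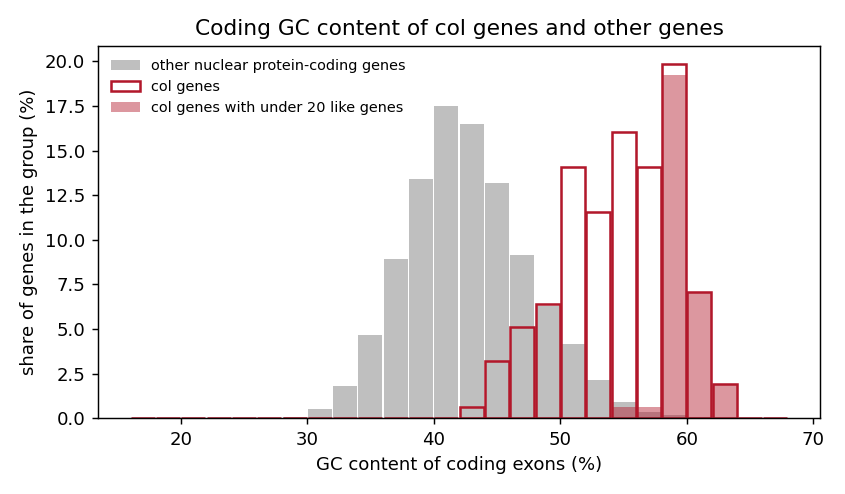
Coding GC content (x axis, %, in steps of 2 points) against the share of genes (y axis, %) for other nuclear protein-coding genes (grey) and col genes (red outline), with the col genes that had under 20 like genes filled. The col genes stand to the right of most other genes, with medians of 55.0% and 42.4%, and those left out of the comparison, at 55.9 to 62.4%, are mostly the GC-richest.

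Each col gene was therefore set beside its like genes, the nuclear genes other than col genes with coding length within 20% and coding GC within 2 percentage points. At least 20 like genes were found for 110 col genes. The other 46, with a median GC content of 59.5% (55.9 to 62.4), were left out, and 27 of these, 58.7%, had a pooled peak. Among the 110, 61 had a pooled peak, 55.5% (45.7 to 64.9), and the mean share of their like genes was 44.3%, a ratio of 1.25. The ratio was 1.19 in replicate 1, with 54.5% (44.8 to 64.1) and 45.8%, and 1.31 in replicate 2, with 61.8% (52.1 to 70.9) and 47.0%. The like genes' share lay inside the interval in replicate 1 and below it in the pooled list and replicate 2. The interval covers the col count only, and the like genes' share has an error of its own that was not measured. The col genes were on average 0.45 percentage points higher in coding GC than their like genes. When length and GC were taken over coding exons and start windows together, a choice made after the values were seen, the pooled ratio was 1.10.

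The difference from like genes came with the weak peaks. Among the 20000 strongest pooled peaks, 40.0% of the 110 col genes and 39.8% of the like genes had one. At 25000 peaks the shares were 49.1% and 42.1%, and at 30000 they were 55.5% and 44.3%. Among the 10000 strongest they were 26.4% and 26.4%, and among the 1000 strongest 5.45% and 7.42%. Replicate 1 gave 23.6% and 27.1% at 10000 peaks and 43.6% and 40.7% at 20000. Replicate 2 differed earlier, with 34.5% and 26.1% at 10000 peaks. Among the 1000 strongest, the col share was not the higher one in either replicate. It was 1.82% beside 4.45% in replicate 1 and 6.36% beside 6.77% in replicate 2. The pooled list and replicate 1 therefore showed no higher share among their 10000 strongest peaks.

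**Figure D3:**
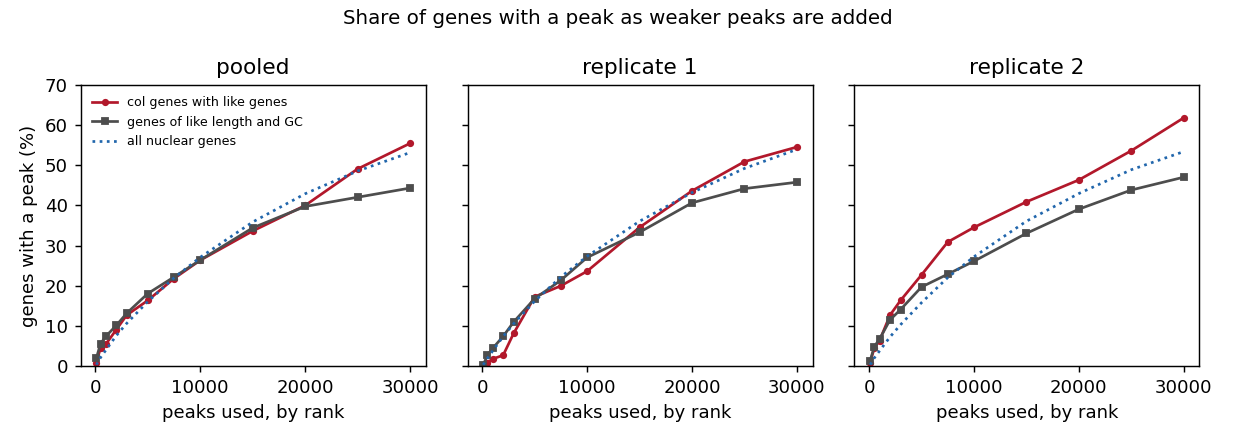
Share of genes with a peak (y axis, %) as peaks are added from the strongest to the weakest (x axis, number of peaks by rank), for the 110 col genes compared (red), their like genes (dark grey) and all nuclear protein-coding genes (dotted). In the pooled list the col and like genes stay together up to 20000 peaks, at 40.0% and 39.8%, and part to 55.5% and 44.3% at 30000.

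Rank among like genes was also described by the standing of each col gene, the percent of its like genes with a worse best rank, with ties counted equally to both sides. The median standing of the 110 was 55.6 in the pooled list, 56.9 in replicate 1 and 60.4 in replicate 2. Genes without a peak are tied last, and under 50% of like genes had a peak, so the median would lie below 50 if col and like genes ranked alike. The medians cannot be read against 50, but a mean can. The mean standing was 52.9, 52.5 and 56.4. col-123 stood at 99.6, col-121 at 99.3 and col-120 at 97.6, and col-2 at 48.3.

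By site, the lists did not give the same picture for coding exons. The share of col genes with a start window summit was near or somewhat above that of all genes in each list. Coding exon summits were found in 60 col genes in the pooled list, 38.5% beside 40.5% of all genes, in 49 in replicate 1, 31.4% beside 40.2%, and in 67 in replicate 2, 42.9% beside 40.2%. Start window summits were found in 55, 35.3% beside 33.8%, in 60, 38.5% beside 33.7%, and in 61, 39.1% beside 33.5%. No interval was made for these start window shares, and with 55 to 61 genes they are not read as a difference. Set beside like genes, the pooled ratio was 0.945 for coding exons and 1.27 for start windows. In replicate 1 it was 0.843 and 1.41, and in replicate 2 it was 1.03 and 1.37. Matching on coding exons and start windows together gave pooled ratios of 0.922 and 1.09.

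Per length, coding exons of col genes held 49.4 pooled summits per 100 kb (exact Poisson 95% interval 38.8 to 61.9), and those of other genes held 56.8. The densities were 37.5 (28.4 to 48.6) and 54.5 in replicate 1 and 58.6 (47.1 to 72.1) and 55.5 in replicate 2, so the replicates lay on different sides of other genes, and in replicate 1 the value of other genes was above the interval. In start windows the density was 35.4 (27.6 to 44.8) in the pooled list and 28.9 in other genes. It was 37.0 (29.0 to 46.5) and 28.5 in replicate 1, and 36.5 (28.5 to 45.9) and 28.5 in replicate 2. Start windows of col genes were thus denser in summits in all 3 lists, with the value of other genes below the interval in replicate 1 and inside it in the pooled list and replicate 2. These densities were not matched for GC content. The 70 pooled start window summits count the one at rank 6813 for both col-159 and col-160, and some lay in coding exons of other genes. The pooled list is made from both replicates and is not a separate measurement.

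**Figure D4:**
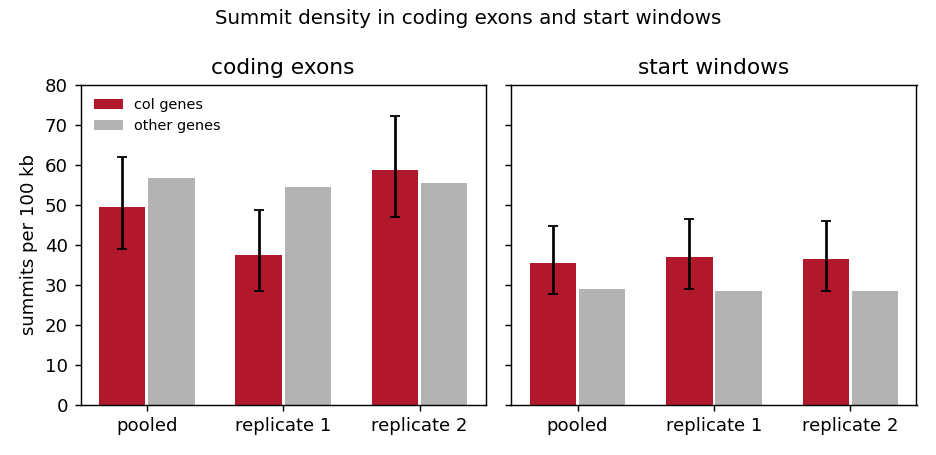
Summits per 100 kb (y axis) in coding exons (left) and start windows (right) of col genes (red) and other nuclear protein-coding genes (grey) in each list (x axis), with exact Poisson 95% intervals on the col bars for counting error only. Coding exons of col genes stand at 37.5 in replicate 1 and 58.6 in replicate 2, on different sides of other genes, and start windows stand above other genes in each list.

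Positions along the gene differed between the lists. In the pooled list 131 peaks formed 135 pairs of a gene and a peak, 75 in a coding exon, 70 in a start window and 10 of these in both. Glycine repeats held 43 of the 75 coding summits, 57.3%, and they are 47.7% of the coding bases of col genes. Replicates 1 and 2 gave 45.6% of 57 and 52.8% of 89, on either side of that share. The stretch from 25 to 50% of the coding length held 36.0% of the pooled coding summits, 28.1% in replicate 1 and 36.0% in replicate 2, and 23.4%, 28.3% and 24.9% in like genes. In the stretch from 0 to 25% the replicates lay on different sides of like genes. It held 33.3% beside 23.2% in replicate 1 and 19.1% beside 32.2% in replicate 2. These position shares carry no interval.

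In start windows, summits were counted in bins of distance, which were added after values were seen and carry no interval. The bin from -750 to -501 bp of the nearest start held 25 of 70 pooled summits, 35.7%, beside 19.4% in other genes. It held 26.0% and 27.8% in replicates 1 and 2, beside 18.97% and 19.2%. The 25 count the summit at rank 6813 for both col-159 and col-160, which overlap. Several of the 25 lay in a coding exon of another gene. The next bin, from -500 to -251 bp, held 4 of 70, 5.71% beside 17.5%, but 13.7% and 16.7% in the replicates, closer to the 17.4% and 17.97% of other genes. Of the 60 pooled pairs in a start window only, 16 had the summit in a coding exon of another gene and cannot be assigned to the col gene alone.

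**Figure D5:**
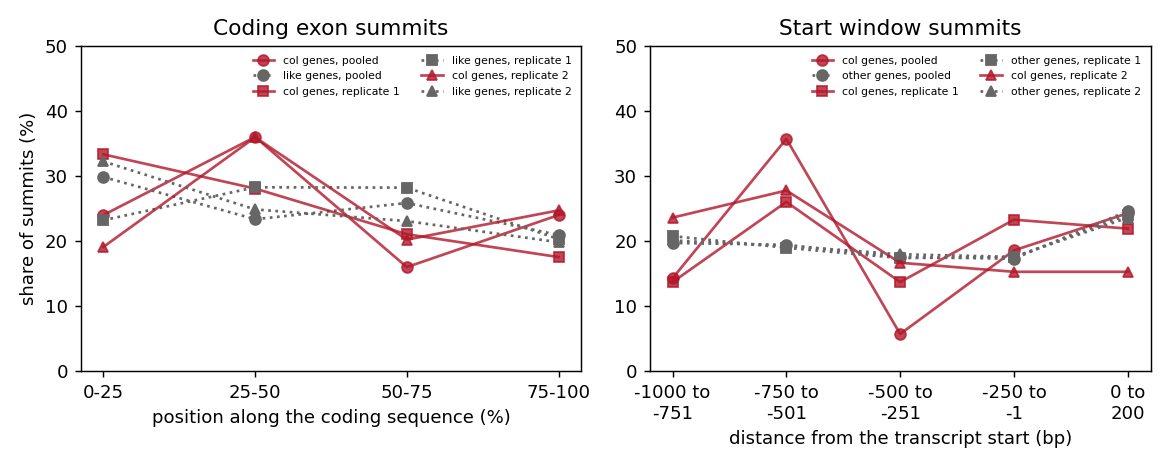
Share of summits (y axis, %) by position along the coding sequence (left, % of its length) and by distance from the nearest transcript start (right, bp), for col genes (red) and like genes (left, grey) or other genes (right, grey) in the 3 lists (marker shapes). The bin from -750 to -501 bp is higher in col genes in each list, at 35.7%, 26.0% and 27.8%. The 1 summit of col-47 in each list lies beyond 200 bp of its nearest start and is outside the bins.

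The NF-Y word was described next, searched as CCAAT on either strand in the 50 bp to each side of a summit. It was in 29 of 131 pooled col windows, 22.1% (exact interval 15.4 to 30.2), and in 22.9% of the windows of other genes. Replicate 1 gave 23.7% and 23.5% and replicate 2 gave 22.5% and 23.1%. The overall share was therefore like that of other genes, but it was made up of unlike parts. At coding summits it was 9 of 75, 12% (5.64 to 21.6), and 24.3% in other genes. At start window summits in no coding exon it was 14 of 43, 32.6% (19.1 to 48.5), and 18.8% in other genes. This division was looked at after the overall shares were seen.

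The replicates gave the same order. Coding summits held CCAAT in 19.3% of 57 in replicate 1 and 12.4% of 89 in replicate 2, and in 24.9% and 24.7% for other genes. Start window summits in no coding exon held it in 12 of 49 in replicate 1, 24.5% (13.3 to 38.9), and in 17 of 48 in replicate 2, 35.4% (22.2 to 50.5), beside 19.5% and 18.5%. The value of other genes lay inside the interval in replicate 1 and below it in replicate 2 and the pooled list. Of the 13 such pooled summits with a rank up to 10000, 6 held CCAAT, as did 1 of 14 in replicate 1 and 4 of 11 in replicate 2. At the same limit the word was in 18.7%, 20.7% and 18.8% of such summits of other genes. The col counts are small, and the replicates lay on different sides of these shares.

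Base composition was set beside these shares. Of all windows of 101 bp centred in coding exons, 17.2% held CCAAT in col genes and 24.98% in other genes, so the word is less common in col coding sequence at large. Among coding summits of at least 50% GC the pooled shares were 11.5% of 61 in col genes and 17.99% in other genes. In start windows outside coding exons, 17.4% of all windows held it in col genes and 18.4% in other genes. The windows at the col start summits had a median GC content of 39.6%, and those of other genes 35.6%. In the promoter stretch from 250 bp upstream to 50 bp downstream, CCAAT was in 48.7% of col genes and in 45.5% of all genes. Col genes with it had a pooled peak in 56.6% of 76 cases and those without it in 56.3% of 80.

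Peaks of col genes recurred between lists about as often as all nuclear peaks. Of the 131 pooled peaks, 58 were overlapped by at least 1 bp in both replicate lists, 44.3% (35.6 to 53.2), and 43.8% of all nuclear pooled peaks were. Among pooled peaks with the summit in a coding exon of any gene the share was 49.4%, inside this interval. Replicate 1 overlapped 82 of them, 62.6%, and replicate 2 overlapped 102, 77.9%, with 62.6% and 76.4% over all nuclear peaks. Among the 10000 strongest of each list, 17 of 48 col peaks were overlapped in both, 35.4%, beside 25.6% of all and 29.0% of coding exon peaks.

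The other genes of the cuticle were read from lists chosen with earlier results of these data known. Cuticle collagens named for their mutant phenotypes had a pooled peak in 9 of 20, replicate 1 in 11 and replicate 2 in 9. The 5 with the best pooled rank were as follows. dpy-9, one of the furrow collagens, ranked 134, 434 and 545 in the pooled list and replicates 1 and 2. dpy-14 ranked 174, 1589 and 272, and dpy-17 ranked 277, 7938 and 172. The furrow collagen dpy-7 ranked 2100, 13678 and 1049, and the strut collagen bli-1 ranked 2210, 4833 and 2658. The furrow collagens dpy-3 and dpy-8, the strut collagen bli-2 and the cuticle collagens sqt-1, sqt-3 and rol-6 were among those with no peak in any of the 3 lists.

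The listed collagens outside the cuticle, which did not include col-99, had a peak in 3 of 3 in each list, too few genes to set against the 53.2 to 54% of all genes. The type IV collagens of basement membranes, emb-9 and let-2, ranked 1710 and 1577 in the pooled list, 108 and 5529 in replicate 1, and 6673 and 2728 in replicate 2. cle-1, a collagen XVIII homologue, ranked 25850, 7929 and 15129. Genes of collagen modification and cross-linking had a pooled peak in 5 of 16, with 8 and 6 in replicates 1 and 2. The peroxidase gene mlt-7 ranked 691, 1907 and 1853, and doxa-1, a dual oxidase maturation factor, ranked 1012, 10497 and 2395. The protease inhibitor gene bli-5 ranked 4801, 2768 and 6570, the dual oxidase gene bli-3 8425, 2683 and 20650, and the proprotein convertase gene bli-4 11148, 6194 and 20344. The prolyl 4-hydroxylase genes dpy-18 and phy-2 had no peak in any list. In the same list of genes, phy-3 and phy-4 had no pooled peak. phy-3 ranked 9725 in replicate 1 only, and phy-4 ranked 14910 in replicate 1 and 25645 in replicate 2.

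Regulators of cuticle genes had a peak in 5 of 10 in each list. The GATA factor gene elt-1 ranked 3719 in the pooled list, 13749 in replicate 1 and 853 in replicate 2. The zinc finger genes bed-3 and blmp-1 ranked 5545 and 6586 in the pooled list, and the nuclear receptor genes nhr-25 and nhr-23 ranked 10971 and 11926. lin-29, the zinc finger gene of the larval-to-adult switch, had no peak in any list. These counts, 5 of 10 and 9 of 20, were near the 53.2% of all genes, and 5 of 16 was below it, on few genes.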

How the data were processed

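Both samples are ChIP-seq libraries of the tagged NFYA-1 protein, grouped and numbered from the labels as biological replicates 1 and 2. Per the notes deposited with the files, the authors called peaks and background for each replicate and for both pooled from alignments on ce11 and a control, and thresholded a final list by the irreproducible discovery rate. No source used here names the aligner or the peak caller. The value of column 7, deposited by the authors, was treated as a score of unstated scale and used for rank alone. Lists on ce10 were not used here, because builds were not converted. Read depth is unknown.

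Ensembl release 115 (WBcel235) gave genes, starts and coding exons, and the RefSeq genome of that assembly gave sequence. Coding length is the union of coding exons. BLAST 2.17.0 was used to find copies, at 90% identity or more over at least 50% of the coding sequence. Scripts ran in Python 3.11.15 with scipy 1.17.1, pandas 2.3.3, numpy 2.4.6 and, for figures, matplotlib 3.10.9. The comparison with like genes was tested on simulated data, in sets drawn from genes with coding GC under 50%. The col genes compared had a median of 53.2%. The simulation therefore did not cover the GC range of most of them, where like genes are fewer. It showed that the median standing is not 50 when genes rank alike, as had been assumed, so the mean was added.

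Members, lists, tests and alternatives were chosen with earlier results of these data known. The named genes were the col gene of the final list, the 15 best pooled ranks, the 10 best by the worse replicate rank, 12 genes of known stage or role, and up to 5 members of each of 4 related lists. dpy-3, dpy-8, bli-2, sqt-1, sqt-3, rol-6, dpy-18, phy-2, phy-3, phy-4 and lin-29 were named after their values were seen. The bins of start distance and the density intervals were also added after values were seen. No test was made. Alternatives changed the site rule, list depth, matching, copies, overlap, motif window and replicate.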

Additional observations from a re-analysis of the deposited data

How the results depend on the processing

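The count of col genes with a pooled peak, 88, was 55 with start windows only, 43 with the 10000 strongest peaks and 9 with the 1000 strongest. It ran from 84 to 97 in the lists of single replicates. The ratio to like genes, 1.25, ran from 1.19 to 1.31 over single replicates. It was 0.945 with coding exons only, 1.16 with starts from 500 bp upstream to 100 bp downstream, 0.998 with the 10000 strongest peaks and 0.735 with the 1000 strongest. Matching on length only gave 1.04, on neither length nor GC 1.06, and on GC of coding exons and start windows 1.12. Matching on length and GC of both together, added after the values were seen, gave 1.10, with 1.09 for start windows and 0.922 for coding exons.

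The median standing, 55.6, ran from 56.9 to 60.4 over single replicates, and the mean in its place was 52.9. The median was 32.6 with coding exons only, 38.3 with start windows only, 32.6 with the shorter start window, 37.9 with the 10000 strongest peaks, 46.8 with the 1000 strongest and 47.8 without summits in coding exons of other genes. Much of this follows from ties, since fewer genes with a peak leave more genes tied last: the means under these settings were 48.0, 52.7, 51.5, 49.7, 48.96 and 51.9. Other matching gave medians of 52.5 (length of coding exons and start windows), 52.8 (their GC), 51.3 (length only), 51.9 (neither) and 52.1 (their length and GC, with 33.99 for start windows and 31.3 for coding exons).

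The share of col peaks overlapped in both replicate lists, 44.3%, was 35.4% among the 10000 strongest. CCAAT, in 22.1% of windows, was in 34.4% within 100 bp, 64.1% within 250 bp, 12% at coding exons and 22.5% to 23.7% in single replicates. Other genes had 40.3% within 100 bp and 71.9% within 250 bp. No paired analysis was possible because the 2 samples form 1 group. Lists of fixed length and unknown depth limit all counts, and a missing peak does not show missing binding.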
